A study of Mus musculus with 4 samples.

Results

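Granins and the enzymes that process prohormones were examined in mouse primary cortical neurons. The set comprised 10 genes chosen by name among 31053 in the count tables: the granins Chga, Chgb, Scg2, Scg3, Scg5 and Vgf, the prohormone convertases Pcsk1 and Pcsk2, the convertase inhibitor Pcsk1n and the carboxypeptidase Cpe. All 10 were found in the tables and all 10 passed the filter on low counts, which kept 12336 genes. Cultures were of WT genotype and, per the study's methods, were made from embryonic C57BL/6J cortex and treated with floxuridine to limit dividing cells. RNA crosslinked to the small-subunit ribosomal protein RPS2 was recovered by enhanced crosslinking and immunoprecipitation (eCLIP) in 2 libraries (IP), and 2 libraries of total RNA were taken, per the methods, from samples ahead of the immunoprecipitation. Labels give rRNA depletion as treatment for IP and no treatment for total RNA, and effects of that step cannot be told apart from those of the IP. Same-numbered IP and total RNA libraries were taken as coming from the same sample, and each replicate number is called a culture here. The comparison asks how much of each mRNA was ribosome-associated relative to its abundance, the ratio that the study used as a measure of translational efficiency.

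Granins are acidic proteins of the regulated secretory pathway. They aggregate with peptide precursors in the trans-Golgi network and are packed into dense-core vesicles, from which neurons release neuropeptides and neurotrophins. Inside these vesicles the convertases cut precursors at pairs of basic residues and the carboxypeptidase trims the basic residues that remain. In cortex, the pathway serves both excitatory neurons and peptide-expressing interneurons.

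Library totals ran from 4899718 to 16460545 counts, and the noncoding RNA gene Gm42418 held between 15.3% and 42.6% of them, so levels are given as CPM, counts relative to a library size adjusted by the trimmed mean of M values (TMM). The share of Gm42418 was larger in both libraries of replicate 1 than in either library of replicate 2. Neuron markers were abundant in every library, with 3520 to 4193 CPM summed over 8 genes. The cultures differed in glial marker levels. Summed over 8 astrocyte markers, replicate 1 held 2880 CPM in total RNA and 3470 in IP, and replicate 2 held 1279 and 1402. Summed over 8 microglia markers, replicate 1 held 90.2 and 85.2 CPM and replicate 2 held 5.92 and 7.28, with Aif1, Cx3cr1, P2ry12, Tmem119 and Itgam at 0 counts in at least 1 library. Oligodendrocyte lineage markers summed to between 66.4 and 89.0 CPM, and endothelial and fibroblast markers to between 3.77 and 26.7. Mog, Mag, Cdh5, Cldn5 and Col3a1 were at 0 in at least 1 library.

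The 10 mRNAs were among the abundant messages of these cultures. Together they held 6514 CPM in total RNA of replicate 1 and 9163 in replicate 2, and 6341 and 7758 CPM in the IP libraries. Vgf and Cpe made up most of each sum. To compare levels between genes, CPM was divided by exonic length in kilobases. So scaled, 10 members were in the top 10% of genes tested in each IP library and 9 in each total RNA library. The exceptions were Pcsk1 at rank 1616 in total RNA of replicate 1 and Pcsk2 at rank 1269 in that of replicate 2. On that scale Vgf, a granin-like precursor whose peptides act in plasticity and energy balance, was the highest member, narrowly so in IP of replicate 1. It measured 764 and 1320 CPM per kilobase in total RNA of replicates 1 and 2, and 686 and 1125 in IP. It ranked from 2 to 9 among the 12336 genes, depending on the library. Cpe, which trims basic residues from cut peptides, ranked from 10 to 12. It measured 680 and 627 CPM per kilobase in total RNA and 685 and 544 in IP.

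The classical granins followed, and all ranges below are over the cultures in total RNA. Scg2, the precursor of secretoneurin, measured 145 and 445 CPM per kilobase in total RNA of replicates 1 and 2. Chgb measured 201 and 250 and Chga, the prototype granin, 169 and 211, so that these 3 genes overlapped. Pcsk1n, which encodes proSAAS, measured 173 and 97.4 and overlapped with Scg2 and Chga. Scg3, which links granin aggregates to the vesicle membrane, measured 68.1 and 181 and overlapped with Scg2, Chga and Pcsk1n and, at its lower end, with Scg5. Scg5, which chaperones the Pcsk2 proenzyme, measured 60.3 and 69.2. The convertases were lowest. Pcsk2 measured 40.1 and 24.4 and Pcsk1 19.7 and 37.1, and their ranges overlapped. The smallest member count behind any of these values was 425, for Scg5 in total RNA of replicate 1.

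**Figure D1:**
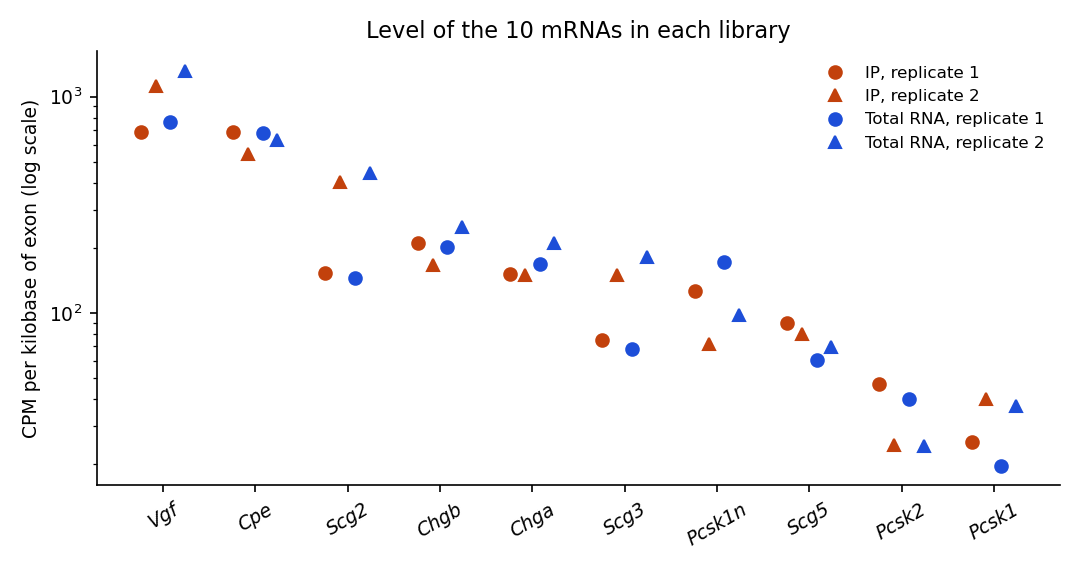
Length-scaled level of the 10 mRNAs, in CPM per kilobase of exon on a log axis, with 1 point per library (circles, replicate 1; triangles, replicate 2; orange, IP; blue, total RNA). Vgf and Cpe lie highest and the convertases lowest, and for Scg2, Scg3, Vgf and Pcsk1 the triangles lie above the circles in IP and in total RNA.

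In the members, as in all genes tested, the median difference between cultures was larger than that between IP and total RNA. The absolute log2 ratio of replicate 2 to replicate 1 in total RNA had a median of 0.75 over the 10 members and 0.40 over all genes tested, and in IP it was 0.69 against 0.35. By comparison, the absolute log2 fold change of IP over total RNA had a median of 0.21 over the members and 0.23 over all genes. With 1 culture per replicate number there is no test of the difference between cultures, and values from IP and total RNA of a culture are not independent replicates of it. A threshold of 1.5-fold in both kinds of library, set after the values were seen, placed 4 members higher in replicate 2, against 6.42% of all genes tested, and 2 members lower, against 11.4%.

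Scg2 had the largest difference among the members. Its level was 364 CPM in total RNA and 386 in IP of replicate 1, against 1119 and 1016 in replicate 2, which is 3.07-fold and 2.63-fold higher. Its log2 ratio lay at percentile 98.9 of all genes tested in both kinds of library. Scg3 was 2.65-fold higher in total RNA (186 and 495 CPM) and 1.99-fold higher in IP (206 and 410 CPM). Vgf was 1.73-fold higher in total RNA (2271 and 3924 CPM) and 1.64-fold higher in IP (2040 and 3344 CPM). Pcsk1, a convertase that makes early cuts in many precursors, was 1.88-fold higher in total RNA (110 and 208 CPM) and 1.58-fold higher in IP (142 and 225 CPM). Thus 3 granins and 1 convertase stood higher in the culture with the lower astrocyte and microglia marker levels, and the part of cell composition in this was not tested. Neuron markers, summed, were 1.19-fold higher in total RNA and 0.951-fold in IP of replicate 2. In bulk libraries fewer cells of a type and less RNA per cell cannot be told apart.

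The other members did not follow this pattern. Pcsk2, the convertase that completes the maturation of many neuropeptides, was 1.65-fold lower in replicate 2 in total RNA (317 and 193 CPM) and 1.92-fold lower in IP (371 and 193 CPM). Pcsk1n was 1.77-fold lower in total RNA (379 and 214 CPM) and 1.76-fold lower in IP (277 and 157 CPM). Chga, Chgb, Scg5 and Cpe differed by less than 1.5-fold in either kind of library. Under scaling by library totals, without TMM, the median log2 ratio of all genes moved to 0.52 in total RNA and 0.40 in IP. Relative to that median Pcsk2 stayed at -0.69 and -0.93 and Pcsk1n at -0.80 in both, but without that centring they were at -0.17 and -0.53 for Pcsk2 and at -0.28 and -0.40 for Pcsk1n, short of 1.5-fold in both kinds of library, and Cpe turned to 0.43 and 0.081, while the 4 higher members remained past 1.5-fold.

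As a result the order of the convertases depended on the culture. Per kilobase, Pcsk2 exceeded Pcsk1 by 2.04-fold in total RNA and 1.85-fold in IP of replicate 1. In replicate 2, Pcsk1 exceeded Pcsk2 by 1.52-fold in total RNA and 1.64-fold in IP. The inhibitor Pcsk1n exceeded Pcsk1 by 8.76-fold and 4.97-fold in replicate 1, and by 2.62-fold and 1.79-fold in replicate 2. Scg5 exceeded Pcsk2 by 1.5-fold and 1.90-fold in replicate 1, and by 2.84-fold and 3.29-fold in replicate 2. The ratio of Scg2 to Chga went from 0.858 in total RNA and 1.02 in IP of replicate 1 to 2.11 and 2.69 in replicate 2. Such ratios within a library do not depend on how libraries were scaled.

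**Figure D2:**
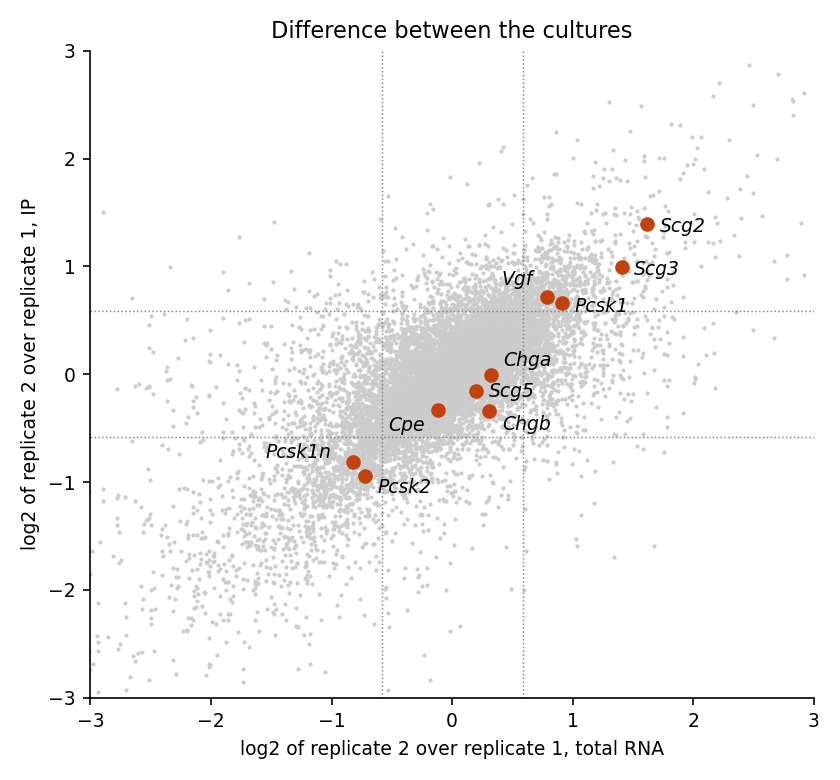
Log2 ratio of replicate 2 over replicate 1 in total RNA (horizontal) and in IP (vertical) for the 12336 genes tested (grey) and the 10 members (orange), with dotted lines at 1.5-fold and 121 genes outside the axes. Scg2, Scg3, Vgf and Pcsk1 lie past the lines at the upper right and Pcsk2 and Pcsk1n in the lower left.

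The promoters of the members were searched for the element described next and its shorter form, and for no other motif. Whether promoter sequence bears on the difference between the cultures was not tested. The cAMP response element (CRE), TGACGTCA, is bound by CREB-family factors and its shorter form, TGACGT, makes up most of it. RefSeq promoters on GRCm38.p6 were given for 8 members, Vgf and Cpe not among them. In the 250 bases before the annotated start, on either strand, TGACGTCA was found in 3 of the 8 (Scg2, Chgb and Pcsk1), against 1.77% of 27025 genes with a promoter. TGACGT, which every TGACGTCA contains, was found in 5 of the 8, with Chga and Scg5 added, against 7.29%. The full element began 68 bases before the start in Scg2, 72 in Chgb and 78 in Pcsk1, and the shorter form began 44 bases before it in Chga, while that in Scg5 lay farther upstream. The 130 bases before the start are given below, 5′ to 3′ on the gene's strand, for the 4 members with a match in this window and for Scg3, which differed between cultures like Scg2 and has none. Capitals mark TGACGTCA and TGACGT on either strand. The RefSeq start of Chgb lies inside the GENCODE gene, so its window is wholly within the GENCODE span, and those of Scg2 and Pcsk1 are so in part.
Scg2 (chr1:79440027-79440156, minus strand): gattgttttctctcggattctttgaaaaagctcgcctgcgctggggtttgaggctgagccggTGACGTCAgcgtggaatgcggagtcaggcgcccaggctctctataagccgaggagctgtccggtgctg
Pcsk1 (chr13:75089727-75089856, plus strand): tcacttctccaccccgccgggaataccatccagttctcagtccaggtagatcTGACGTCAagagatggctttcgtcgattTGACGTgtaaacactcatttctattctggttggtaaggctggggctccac
Chgb (chr2:132781512-132781641, plus strand): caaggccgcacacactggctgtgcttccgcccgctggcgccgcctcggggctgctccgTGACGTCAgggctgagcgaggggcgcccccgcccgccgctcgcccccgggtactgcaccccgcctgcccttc
Chga (chr12:102554811-102554940, plus strand): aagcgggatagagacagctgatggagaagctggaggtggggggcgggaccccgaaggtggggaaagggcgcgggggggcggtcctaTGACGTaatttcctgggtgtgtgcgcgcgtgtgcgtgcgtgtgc
Scg3 (chr9:75684057-75684186, minus strand): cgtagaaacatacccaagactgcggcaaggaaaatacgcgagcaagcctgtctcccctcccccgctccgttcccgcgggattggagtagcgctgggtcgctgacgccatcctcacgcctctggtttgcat
In Pcsk1 a further TGACGT lies downstream of the full element. Of the members with the full element, Scg2 and Pcsk1 were past 1.5-fold higher in replicate 2, and Chgb was 1.24-fold higher in total RNA and 1.27-fold lower in IP. A match in these letters is a description and says nothing of binding in these cultures.

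IP was then set against total RNA with the culture as a block. Fold changes below are log2 ratios of IP over total RNA from edgeR's quasi-likelihood fit across all 12336 genes, with SE and Benjamini-Hochberg adjusted p. The SE was derived from the fold change and its test statistic, so it rests on the same dispersion as the p-value. At an adjusted p under 0.05, 1 of the 10 members was called higher in IP (Scg5) and 2 were called lower (Chga and Pcsk1n), against 6.63% and 7.55% of all genes tested. The other 7 passed in neither direction. The members had a median of -0.086, against 0.011 over all genes. The groups did not overlap for 2 members, Chga and Scg5, against 31.8% of all genes. Of all calls 46.8% were higher in IP, and 24.4% when TMM was left out. With the block each gene has 1 residual degree of freedom, and the prior degrees of freedom were estimated as infinite, so p-values rest on a dispersion trend shared by all genes. Without the block 0 of the 10 members were called and 0 had an unadjusted p under 0.05, while 0 genes overall were called and 349 had an unadjusted p under 0.05.

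Among the granins, Chga was lower in IP and Scg5 higher. Chga (ENSMUSG00000021194, mm10 chromosome 12, 102554969 to 102565028) measured 415 and 414 CPM in IP of replicates 1 and 2, and 465 and 582 in total RNA. Its IP libraries lay below its total RNA libraries, with a fitted log2 fold change of -0.33 ± 0.098 (adjusted p = 0.00959), a 1.26-fold lower level. Pair 1 gave -0.16 and pair 2 gave -0.49. The call was lost when TMM was left out, where the log2 fold change was -0.41 (adjusted p = 0.0987), and with an offset for GC content and length, where it was -0.27 (adjusted p = 0.0965), and adjusted p ranged from 0.00268 to 0.0987 over the 10 blocked fits.

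Scg5 (ENSMUSG00000023236, chromosome 2, 113776362 to 113829121) measured 140 and 126 CPM in IP, and 94.6 and 109 in total RNA. Its IP libraries lay above its total RNA libraries. The log2 fold change was 0.39 ± 0.11 with an adjusted p of 0.00421, which is 1.31-fold higher, at 0.57 in pair 1 and 0.21 in pair 2. With the GC and length offset it was 0.11, and the adjusted p was 0.653. The call was also absent in DESeq2, at 0.37 (adjusted p = 0.113), and without TMM, at 0.30 (adjusted p = 0.164), and adjusted p ranged from 0.00227 to 0.653 over the 10 blocked fits. It is the shortest member, with 1569 exonic bases.

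The other granins were not called. Chgb (chromosome 2, 132781278 to 132795079) measured 577 and 455 CPM in IP and 552 and 684 in total RNA, with a log2 fold change of -0.26 ± 0.099 and an adjusted p of 0.0542. Its ratio was 0.063 in pair 1 and -0.59 in pair 2, the largest difference between the pairs among the members, and 4 of 10 blocked fits called it lower (adjusted p from 0.0225 to 0.657). Scg2 (chromosome 1, 79434669 to 79440120) was at -0.031 ± 0.10 and Scg3 (chromosome 9, 75643189 to 75684056) at -0.075 ± 0.099. Their pair ratios were 0.084 and -0.14 for Scg2, and 0.14 and -0.27 for Scg3, so each changed sign between the pairs. The higher level of both genes in replicate 2 was seen in IP as in total RNA. Vgf (chromosome 5, 137026392 to 137033351) was at -0.19 ± 0.11 (adjusted p = 0.264), with -0.16 and -0.23 in the pairs. It has the highest GC content of the members, 64.8%, and was at 0.091 once the offset for GC content and length was applied.

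Of the convertases and the inhibitor, Pcsk1n passed the test and Pcsk1 and Pcsk2 did not. Pcsk1n (ENSMUSG00000039278, chromosome X, 7919822 to 7924410) encodes proSAAS, a granin-like protein that inhibits the Pcsk1 product. It measured 277 and 157 CPM in IP and 379 and 214 in total RNA. The groups overlapped because replicate 1 was higher than replicate 2 in both, but within each culture IP was lower by nearly the same factor, with a log2 ratio of -0.45 in pair 1 and -0.44 in pair 2. The fit gave -0.45 ± 0.099 (adjusted p = 2.0e-04), a 1.36-fold lower level. All 10 blocked fits called it, with log2 fold changes from -0.53 to -0.40, which made it the member whose call depended least on these settings. Eras lies on the opposite strand over its exons, and counting used the strand.

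Pcsk1 (chromosome 13, 75089826 to 75134861) was at 0.23 ± 0.10 (adjusted p = 0.117), with 0.36 and 0.11 in the pairs. Pcsk2 (chromosome 2, 143546156 to 143816285) was at 0.12 ± 0.099 (adjusted p = 0.490), with 0.23 and 0.0034. Pcsk1 lay above 0 in both pairs and Pcsk2 in pair 1, with next to no difference for Pcsk2 in pair 2. With the GC and length offset Pcsk1 was at 0.012 and Pcsk2 at 0.013. Neither was called in any of the 10 blocked fits. Cpe (chromosome 8, 64592542 to 64693054) measured 1787 and 1419 CPM in IP and 1774 and 1635 in total RNA, with a fitted value of -0.097 ± 0.11 (adjusted p = 0.612). Its ratio was 0.011 in pair 1 and -0.21 in pair 2.

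The ratio was lower in pair 2 than in pair 1 for 9 of the 10 members, Pcsk1n excepted. Over all genes tested this held for 51.2%, and for 54.3% of the 5003 genes whose 4 counts were all 100 or more, which include all members. It also held for 8 of 8 neuron markers, 7 of 7 tested astrocyte markers, 5 of 7 excitatory and 5 of 7 inhibitory neuron markers and 8 of 14 peptide precursors, but for 2 of 12 other propeptide enzymes and 1 of 4 tested microglia markers. Above 0 were 7 members in pair 1 and 3 in pair 2, against 6325 and 6262 of all 12336 genes tested.

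**Figure D3:**
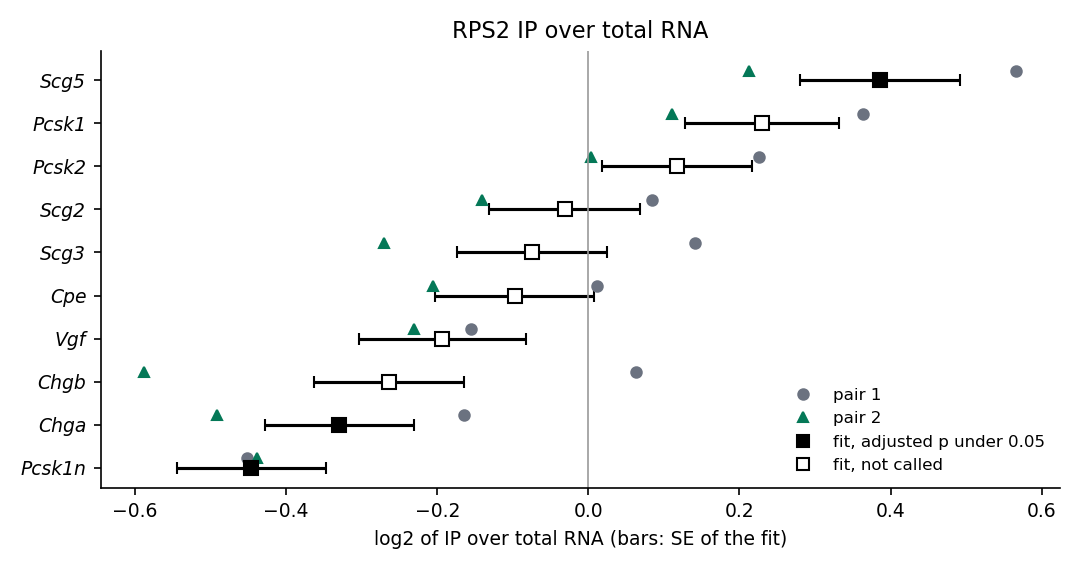
Log2 ratio of IP over total RNA for the 10 members, with squares for the blocked fit (bars, SE; filled, adjusted p under 0.05), circles for pair 1 and triangles for pair 2. Scg5 is called higher and Chga and Pcsk1n lower, and for 9 members the triangle lies left of the circle.

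Other genes of the pathway were compared in the same fit. Of 14 further enzymes that cut or modify propeptides, 12 were tested, and 2 were called, both lower (against 7.55% of all genes), with a median of -0.28 (all genes, 0.011). Furin, the convertase of the constitutive secretory route, measured 49.1 and 40.8 CPM in IP and 80.6 and 63.6 in total RNA. The fit put Furin at -0.68 ± 0.12 (adjusted p = 6.8e-07), and it was called in 10 of 10 blocked fits. Cpd, a carboxypeptidase of the trans-Golgi network, was at -0.28 ± 0.10 (adjusted p = 0.0430), and was called in 7 of 10. By level Pam, Cpd and Tpst2 led the list. Pam, which amidates the ends of peptides, was at -0.044, and was 1.59-fold and 1.73-fold higher in total RNA and IP of replicate 2. Tpst2, which sulfates tyrosines of secreted proteins, was at -0.10.

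Of 26 genes that act in formation, transport or release of dense-core vesicles, 25 were tested, with 4 called higher and 2 lower (against 6.63% and 7.55% of all genes) and a median of -0.037. The 2 lower calls are near the share of all genes. Both receptor-type phosphatase-like proteins of the vesicle membrane were lower in IP. Ptprn was at -0.39 ± 0.099 (adjusted p = 0.00132) and Ptprn2 at -0.48 ± 0.098 (adjusted p = 4.8e-05). The call of Ptprn was lost when TMM was left out and with the GC and length offset (adjusted p from 1.7e-04 to 0.308 over the blocked fits). The genes called higher were small GTPases and a synaptotagmin. Rab2a, which acts in vesicle maturation, was at 0.73 ± 0.12 and was called in 10 of 10 blocked fits. Rab3a and Rab3c, which act in exocytosis, were both at 0.41 (adjusted p = 7.1e-04 and 0.00215) and were called in 9 and 8 of 10. Syt4, a synaptotagmin of dense-core vesicles, was at 0.40 (adjusted p = 0.00114) and was called in 7. By level Kif1a, the motor that carries dense-core vesicles, led with 272 to 364 CPM per kilobase, followed by Rab3a and Ptprn, and its log2 fold change of -0.27 had an adjusted p of 0.0853 and was called in 3 of 10.

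Of 14 peptide precursors that travel in these vesicles, 14 were tested, and 2 were called, both higher (against 6.63% of all genes), with a median of 0.27. Cck was at 0.58 ± 0.10 (adjusted p = 5.2e-07), from 242 and 536 CPM in IP and 182 and 321 in total RNA, and was called in 10 of 10 blocked fits. Cartpt was at 0.48 ± 0.15 (adjusted p = 0.0173), called in 7 of 10. Npy and Adcyap1, which with Cck had the highest levels per kilobase, were at 0.25 and 0.23 with adjusted p of 0.106 and 0.112. Between the cultures 8 of the 14 were past 1.5-fold higher in replicate 2 in both kinds of library, against 6.42% of all genes, and 2 were past it lower, near the 11.4% of all genes. The higher ones included Cck, at 1.77-fold higher in total RNA and 2.22-fold in IP. Adcyap1 was at 2.14-fold and 1.98-fold, and Cartpt at 2.69-fold and 2.08-fold. Scg2, Scg3, Vgf and Pcsk1 thus stood higher in the same culture as most of these precursors, which is a description of 2 cultures.

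**Figure D4:**
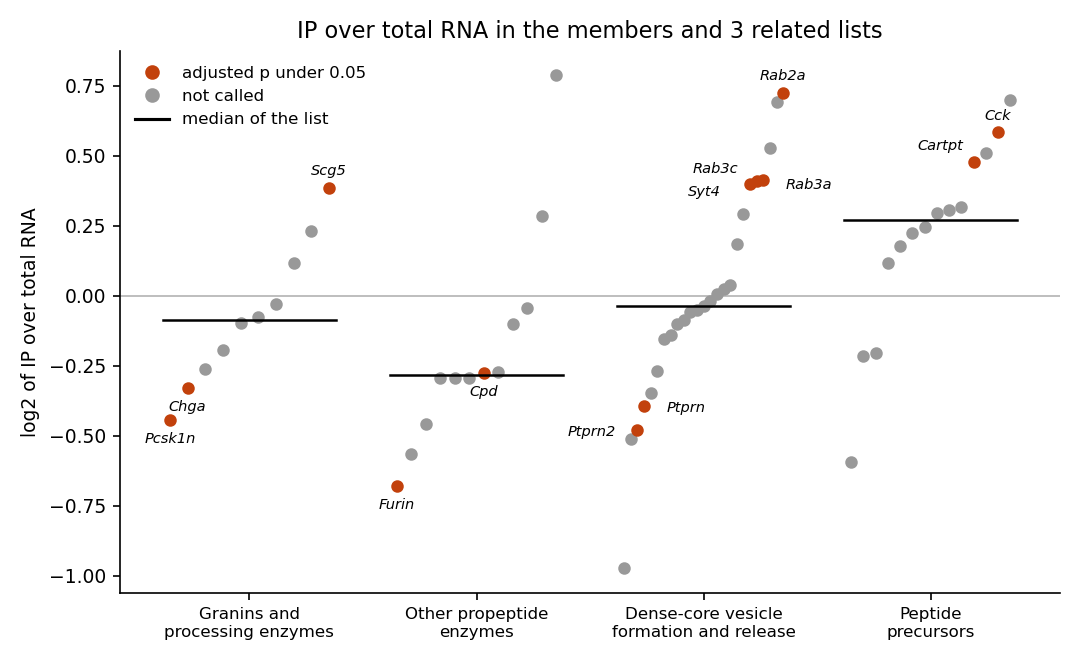
Log2 fold change of IP over total RNA from the blocked fit for the members and 3 related lists, with 1 point per tested gene (orange and named, adjusted p under 0.05) and bars at the median of each list. The medians are -0.086, -0.28, -0.037 and 0.27 from left to right.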

How the data were processed

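The members were given by name, and they and the related gene lists, which were written from general knowledge, were chosen with earlier results of these data known. Raw counts of reads were deposited for each gene, beside its exonic length. Per the file headers and the study's methods, the authors trimmed single-end reads with cutadapt, aligned them end to end to mm10 with STAR and counted them by strand with featureCounts 1.5.3, which leaves out reads that fall in several loci or genes. No removal of PCR duplicates was stated. Symbols from GENCODE M21 matched 30934 of 31053 identifiers. In R 4.3.3, edgeR 4.0.16 was used with filterByExpr, TMM scaling, the replicate number as a block and the quasi-likelihood test, two-sided, with Benjamini-Hochberg adjustment over 12336 genes and a threshold of 0.05. The block was used because total RNA was taken from the same samples, and deviations from the group means correlated at 0.733 (Pearson, across genes) between same-numbered libraries. The coefficient of variation was 7.93% with the block and 29.7% without. Log2 ratios within a pair or between replicates use a prior count of 2. Alternatives included DESeq2 1.42.0, limma-voom (limma 3.58.1), other scalings and filters, thinning to the smallest library and an offset for GC content and length from splines. The fit was tested on simulated data, drawn with the dispersion of the blocked fit, in which 200 genes were changed. With the block it recovered 73 of 100 2-fold and 91 of 100 4-fold changes, with 8 false calls. Without the block it recovered 0. Changes as small as those of the members were not simulated. Because the draws used the fit's own dispersion and the same IP effect in both pairs, few false calls were built in. They do not show whether that dispersion suits the real libraries. Named genes are all members, other pathway genes called in the main fit, and the 3 highest of each list per length. Crh is added for its call with the offset, and cell type markers are named where at 0 counts in a library. The data give 2 samples per group, which nothing shows to be separate animals. The block takes up differences between the cultures, so p-values of the blocked fits do not measure the spread between the samples of a group. In the main fit they rest on the dispersion trend shared by all genes.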

Additional observations from a re-analysis of the deposited data

How the results depend on the processing

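The calls of IP against total RNA rest on the replicate block. Without it each of the 10 members kept the sign it had with the block, and the counts of higher and lower genes, members and related genes were all 0. These counts with the block are 818 genes higher and 931 lower, so that 46.8% of calls were higher. DESeq2, which left 7653 genes with no adjusted p, gave 158 and 382 (29.3% higher), library size only gave 283 higher, with 24.4% of calls higher, the GC and length offset gave 469 and 384, thinning gave 444 higher, and an adjusted p under 0.01 gave 452 and 602. Members called higher numbered 0 in DESeq2, with library size only and with the offset. Members called lower numbered 1 with library size only. Related enzymes called lower numbered 1 (Furin) in DESeq2, with library size only, with no low-count filter and at 0.01. Vesicle genes called higher and lower each numbered 1 with library size only (Rab2a and Ptprn2), and lower numbered 1 with the offset (Ptprn2). Peptide precursors called higher numbered 1 (Cck) in DESeq2, with library size only, with the offset and at 0.01, and lower numbered 1 (Crh) with the offset. Members past 1.5-fold lower in replicate 2 numbered 0 with library size only and 2 without Gm42418, and the 4 higher ones stayed 4. Vgf was at 0.091 with the offset. The cause of these changes was not tested.

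Leaving out 1 library, with no block, sets a lone library against both cultures. It gave from 0 to 0 genes higher and from 1 to 20 lower (1, 3 and 20 as the distinct values), and from 0 to 0 members or related genes. Log2 fold changes then ran from -0.96 to 0.94 for Scg2, -0.74 to 0.72 for Scg3, -0.62 to 0.24 for Vgf, -0.18 to 0.73 for Pcsk1, -0.40 to 0.55 for Pcsk2, -0.91 to 0.024 for Pcsk1n and -0.26 to 0.057 for Cpe. Without IP replicate 1 the values were 0.45 for Scg2, 0.27 for Scg3 and 0.11 for Vgf, and without total RNA replicate 2 that of Pcsk2 was -0.17. Pcsk1n was at 0.024 without total RNA replicate 1. Chga, Chgb and Scg5 kept their sign in each of the 4. Leaving out a whole pair allows no test, and the ratio of the remaining pair is given in the report.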
